A study of Mus musculus with 18 samples.

Results

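Aortic expression was examined for 10 immediate early genes, taken by symbol from 55453 gene symbols in the count tables of 2 experiments on mice with an edited CArG box in the Tspan2 promoter. They were Egr1, Egr2, Egr3, Egr4, Nr4a1, Nr4a2, Nr4a3, Ier2, Btg2 and Dusp1, and all 10 were present in both tables. These genes were chosen by their values in the comparison of mutant with wild type mice in the same libraries. Their levels and fold changes by genotype are therefore given as a description, with no p-value, and no count of them supports a difference.

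A CArG box is the element bound by serum response factor (SRF), and the edit in each experiment was made within the box upstream of Tspan2, a tetraspanin gene expressed in smooth muscle. The HDR experiment used Cas9 cutting with a donor oligonucleotide to install a 3-base substitution, and aortae of 5 wild type (WT) and 5 homozygous (sg/sg) mice aged 12 weeks were sequenced, with strain C57BL/6 in the labels. In the PE2 experiment, a Cas9 nickase fused to reverse transcriptase and a pegRNA installed a single-base substitution, and aortae of 4 WT and 4 homozygous (peg/peg) mice aged 8 weeks were sequenced, and the labels give their background as FVB/N/B6(Cg)-Tyrc-2J/J. Each HDR genotype held females and males, but the columns of its count table give the genotype only, so that sex could not be tied to a library, and library numbers are those of the columns. In the PE2 experiment WT replicate 4 was male and the other libraries were female. Founder zygotes in each experiment came from FVB/NJ females and B6(Cg)-Tyr2J/J males, each library was made from an individual aorta cleaned of periadventitial tissue, and the labels and the methods name different TruSeq kits and read lengths. The methods give the same strains for each experiment and a cross of founders to C57BL/6J, so that the strain difference is one of labels. Edit, age, strain label, mix of sexes and depth differ together between the experiments and cannot be told apart.

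Immediate early genes are transcribed within minutes of a stimulus from factors already present in the cell, mainly SRF with its ETS partners at CArG boxes and CREB at cAMP response elements (CRE), and their transcripts are short-lived. EGR proteins are zinc finger transcription factors, and NR4A proteins are orphan nuclear receptors whose activity is set largely by their abundance. Dusp1 encodes a phosphatase that inactivates MAP kinases, Btg2 an antiproliferative protein that recruits mRNA deadenylases, and Ier2 a small nuclear protein. In the vessel wall these genes respond to growth factors, stretch, injury and the handling of tissue.

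Promoter windows of 250 bases before to 50 bases after the transcription start site, from RefSeq (GRCm38.p6), were matched for 7 of the 10 genes, namely Egr2, Egr4, Nr4a1, Nr4a2, Nr4a3, Btg2 and Dusp1. Egr2 had 5 windows and each of the others 1, making 11. Windows of 5 of these genes are shown as examples of the elements through which immediate early genes are classically switched on. Those of Egr4 and Nr4a2, which also hold half-sites, are not shown. The sequences run 5′ to 3′ on the strand of the gene. Capitals mark the CRE half-site TGACG or its complement CGTCA, the full CRE TGACGTCA, which contains both half-sites, and the CArG box.
Egr2 (chr10:67537619-67537918, plus strand): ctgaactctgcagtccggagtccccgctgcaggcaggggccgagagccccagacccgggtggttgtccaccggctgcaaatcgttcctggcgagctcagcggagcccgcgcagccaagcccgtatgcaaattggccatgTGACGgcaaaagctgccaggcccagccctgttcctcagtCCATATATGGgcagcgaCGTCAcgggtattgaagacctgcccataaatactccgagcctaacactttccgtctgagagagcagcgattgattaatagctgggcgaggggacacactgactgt
Nr4a1 (chr15:101266596-101266895, plus strand): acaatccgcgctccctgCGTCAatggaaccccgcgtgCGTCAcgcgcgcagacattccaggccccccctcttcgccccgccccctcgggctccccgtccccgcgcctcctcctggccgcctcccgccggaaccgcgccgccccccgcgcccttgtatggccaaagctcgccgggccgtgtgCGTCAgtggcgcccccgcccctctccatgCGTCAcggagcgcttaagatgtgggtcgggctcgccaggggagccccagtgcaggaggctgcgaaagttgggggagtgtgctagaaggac
Nr4a3 (chr4:48045055-48045354, plus strand): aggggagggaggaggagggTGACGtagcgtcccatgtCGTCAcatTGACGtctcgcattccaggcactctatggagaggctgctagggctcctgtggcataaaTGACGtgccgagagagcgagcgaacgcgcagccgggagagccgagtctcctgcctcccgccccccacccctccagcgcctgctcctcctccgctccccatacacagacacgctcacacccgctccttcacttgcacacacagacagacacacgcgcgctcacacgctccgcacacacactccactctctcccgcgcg
Btg2 (chr1:134079106-134079405, minus strand): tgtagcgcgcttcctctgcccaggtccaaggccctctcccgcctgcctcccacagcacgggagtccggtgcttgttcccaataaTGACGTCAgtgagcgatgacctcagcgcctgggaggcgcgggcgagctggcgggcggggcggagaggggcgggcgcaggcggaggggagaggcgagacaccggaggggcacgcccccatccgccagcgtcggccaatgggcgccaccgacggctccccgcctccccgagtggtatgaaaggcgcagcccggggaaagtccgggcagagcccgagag
Dusp1 (chr17:26508423-26508722, minus strand): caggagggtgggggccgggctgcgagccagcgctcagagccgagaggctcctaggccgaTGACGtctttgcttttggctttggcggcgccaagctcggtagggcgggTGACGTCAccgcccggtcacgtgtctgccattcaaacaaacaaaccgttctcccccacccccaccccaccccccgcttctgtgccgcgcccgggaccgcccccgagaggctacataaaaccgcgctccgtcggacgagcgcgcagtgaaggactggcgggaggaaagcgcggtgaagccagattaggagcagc

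Among 32851 windows of all genes, 20.8% held a half-site on either strand, 5.01% held at least 2, 1.79% held a full CRE and 1.63% held a CArG box. The window of Nr4a1 held 4 half-sites, as did those of Nr4a2 and Nr4a3. Both Btg2 and Dusp1 held 1 full CRE, at positions -166 and -143 from the start site respectively, and Dusp1 had another half-site at -191. The window shown for Egr2 held a CArG box at -72 with a half-site on each side, and 2 overlapping windows of Egr2 hold the same elements. Of its remaining windows, 1 held another CArG box and a CArG-like box but no half-site, and 1 held none of these elements. Egr4 held 2 half-sites. A CArG-like box, with 1 substitution, was also found in the windows of Egr4, Nr4a1, Btg2 and Dusp1, against 19.9% of all windows. These matches describe letters in a window and are not evidence that a factor is bound there. Neither window of Tspan2 held a CArG box, although the edited box is upstream of that gene. A window without a match thus does not show that a gene lacks the element.

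**Figure D1:**
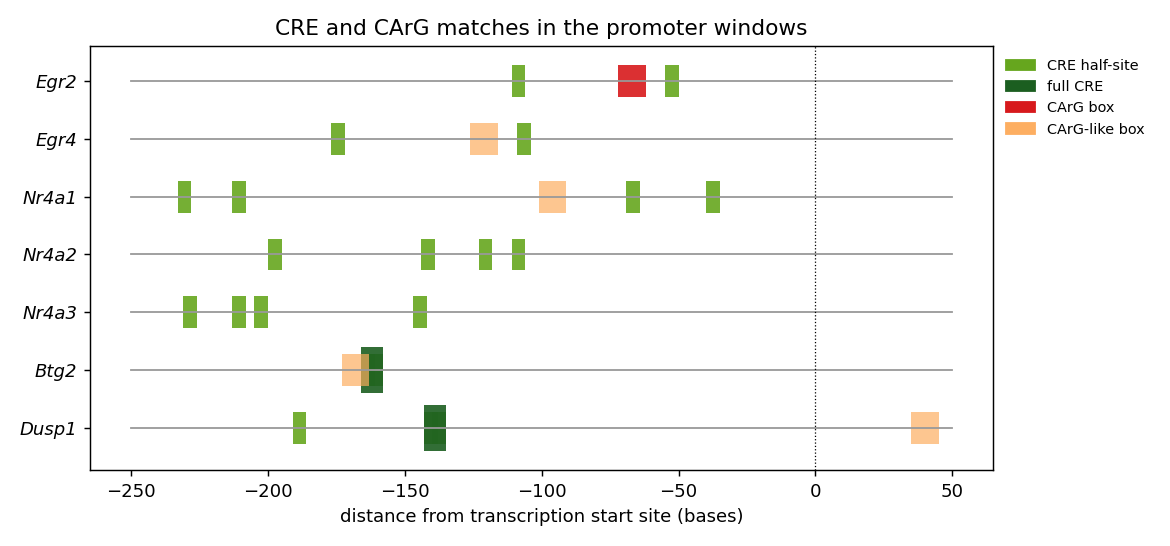
Matches to the CRE half-site, full CRE, CArG box and CArG-like box in 1 promoter window of each of 7 genes (for Egr2, the window shown), with distance from the transcription start site in bases on the horizontal axis. Nr4a1, Nr4a2 and Nr4a3 each carry 4 half-sites, and among the windows drawn a CArG box is in that of Egr2.

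Libraries held 17290992 to 24880385 counts in the HDR experiment and 38820265 to 44895615 in the PE2 experiment, and values below are CPM, counts scaled to the effective library size given by TMM normalization. The edited gene behaved as labelled: Tspan2 was 209 ± 60.1 CPM (SD, n = 5) in WT and 24.9 ± 8.12 (n = 5) in sg/sg, and 218 ± 45.0 (n = 4) in WT and 19.96 ± 6.74 (n = 4) in peg/peg, with no overlap in either experiment. Smooth muscle markers were abundant in every library, with 6 summed markers at 15824 to 52393 CPM. One library stood apart. In peg/peg replicate 3, 5 summed skeletal muscle markers reached 1132 CPM against 8.09 to 13.3 in the other peg/peg libraries, 4 fat markers were 24.4 CPM against 460 to 1625, 5 endothelial markers were 522 CPM against 1166 to 2832, and mitochondrial transcripts took 3.70% of counts against 8.51% to 11.2%. Most fold changes and counts of the PE2 experiment are given with it first and then without it. Markers of other cells also moved: 3 cardiac muscle markers were 0.969, 58.4, 4.61 and 18.9 CPM in peg/peg replicates 1 to 4 against 0.331 to 2.49 in WT, with 2 of 2 tested markers higher at an unadjusted p under 0.05 with or without replicate 3. Red blood cell markers, 3 in all, ranged from 22.01 to 1014 CPM in peg/peg and from 248.6 to 567 in WT. Fibroblast markers were 5439 to 10295 CPM in peg/peg and 4912 to 8222 in WT, and macrophage markers 177 to 495 and 94.4 to 339 CPM, with all 4 of each list above 0 in log2 difference and none at an unadjusted p under 0.05. The macrophage list was lower in sg/sg, with 3 of 4 at an unadjusted p under 0.05. At that threshold 2 of 5 skeletal muscle markers were higher in sg/sg and the 1 tested cardiac marker lower, against 0.353% and 1.63% of all genes. In peg/peg 2 of 4 tested skeletal muscle markers were higher, against 3.04%, and none was without replicate 3, against 2.19%. Endothelial markers were 1251 to 2004 CPM in PE2 WT, with 0 of 5 above 0 in log2 difference and 1 lower at that threshold. Fat markers were 548 to 2351 CPM in PE2 WT, with 0 of 4 above 0 in either mutant. Without replicate 3 the PE2 median log2 difference was 0.19 for endothelial, -0.30 for fat, 0.41 for fibroblast and 0.03 for macrophage markers. The peg/peg macrophage sums were then 177 to 245 CPM, within the WT range. The part of these cell markers in the values below was not tested. In bulk aorta, fewer cells of a type and less RNA per cell cannot be told apart.

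Among the EGR genes, Egr1 was the most abundant. Its levels in WT replicates 1 to 4 were 104, 46.4, 66.6 and 34.2 CPM, and in peg/peg replicates 1 to 4 they were 158, 123, 116 and 184 CPM. Every peg/peg library lay above every WT library, and the mean was 2.31-fold higher (log2 difference 1.21 ± 0.34, SE). Among HDR aortae the WT libraries 2 to 6 gave 86.1, 47.1, 59.8, 92.9 and 45.6 CPM and the sg/sg libraries 2 to 6 gave 82.4, 88.5, 105, 127 and 63.9 CPM. These groups overlapped, with a log2 difference of 0.49 ± 0.24.

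Egr2, which is best known from myelinating Schwann cells and lymphocytes, was scarce. It gave 2.52, 0.576, 1.04 and 1.67 CPM in PE2 WT and 4.24, 3.94, 2.09 and 2.48 CPM in peg/peg, a log2 difference of 1.13 ± 0.47 with WT replicate 1 inside the peg/peg range. For HDR mice its range was 0.992 to 4.19 CPM in WT and 1.80 to 2.95 CPM in sg/sg, and the difference was -0.19 ± 0.36. Schwann cell markers, 3 in all, summed to 25.9 to 102 CPM in PE2 WT and 26.1 to 152 CPM in peg/peg, and their part in the values of Egr2 was not tested.

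Egr3 gave 5.20, 1.48, 1.79 and 1.54 CPM in PE2 WT and 8.94, 5.80, 1.76 and 8.89 CPM in peg/peg. Replicate 1 was the highest WT library, and peg/peg replicate 3 fell within the WT range while the other peg/peg libraries lay above it. The log2 difference was 1.34 ± 0.60. With HDR editing Egr3 was 4.70 ± 1.11 CPM in WT and 4.74 ± 1.21 in sg/sg (SD, n = 5 each), a difference of 0.01 ± 0.23. Egr4 was near absent: 0 counts in the HDR WT libraries, which allows up to 0.0277 CPM over the group, 1 count in sg/sg, 6 counts in PE2 WT and 2 in peg/peg, too few for a fold change, and it was removed by the filter on low counts. This limit covers counting error only.

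Nr4a1, the receptor also called Nur77, had the largest difference of the 9 genes tested in the PE2 experiment. It gave 43.8, 19.3, 26.3 and 16.01 CPM in WT and 160, 99.2, 26.5 and 102 CPM in peg/peg. Peg/peg replicate 3 was level with WT, and the other peg/peg libraries lay above all WT libraries, for a log2 difference of 1.88 ± 0.53 or 3.69-fold. In the HDR experiment Nr4a1 was 142, 55.5, 88.3, 114 and 76.3 CPM in WT and 89.8, 33.9, 129, 87.3 and 112 CPM in sg/sg. The groups overlapped almost entirely, with a difference of -0.08 ± 0.33.

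Nr4a2 (Nurr1) differed little in the PE2 experiment. It gave 7.87, 7.21, 7.63 and 8.04 CPM in WT and 10.4, 7.40, 5.89 and 9.25 CPM in peg/peg, a log2 difference of 0.10 ± 0.19. Among HDR aortae it ranged from 9.72 to 29.7 CPM in WT and from 8.83 to 15.7 CPM in sg/sg, a difference of -0.55 ± 0.29 that was -0.24 without WT library 2.

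Nr4a3 (Nor1) gave 7.72, 5.03, 3.75 and 4.54 CPM in PE2 WT and 10.8, 9.44, 18.9 and 6.31 CPM in peg/peg. Here peg/peg replicate 3, low for Dusp1, Nr4a1 and Egr3, was the highest library. The log2 difference was 1.11 ± 0.36, and 0.75 without that replicate. For HDR mice the WT libraries gave 9.15, 58.2, 7.10, 8.82 and 19.2 CPM and the sg/sg libraries 6.82, 10.3, 6.73, 6.83 and 18.1 CPM. The HDR difference of -1.07 ± 0.57 was -0.19 without WT library 3. In that library the skeletal muscle markers summed to 125 CPM against 4.49 to 5.62 in the other WT libraries, and the library with the highest Nr4a3 also had the highest skeletal muscle sum in PE2 WT and in peg/peg. It did not in sg/sg, where Nr4a3 was highest in library 6, with a sum of 16.2 CPM, and the sum was highest in library 5, at 68.8 CPM. Whether the one accounts for the other was not tested.

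**Figure D2:**
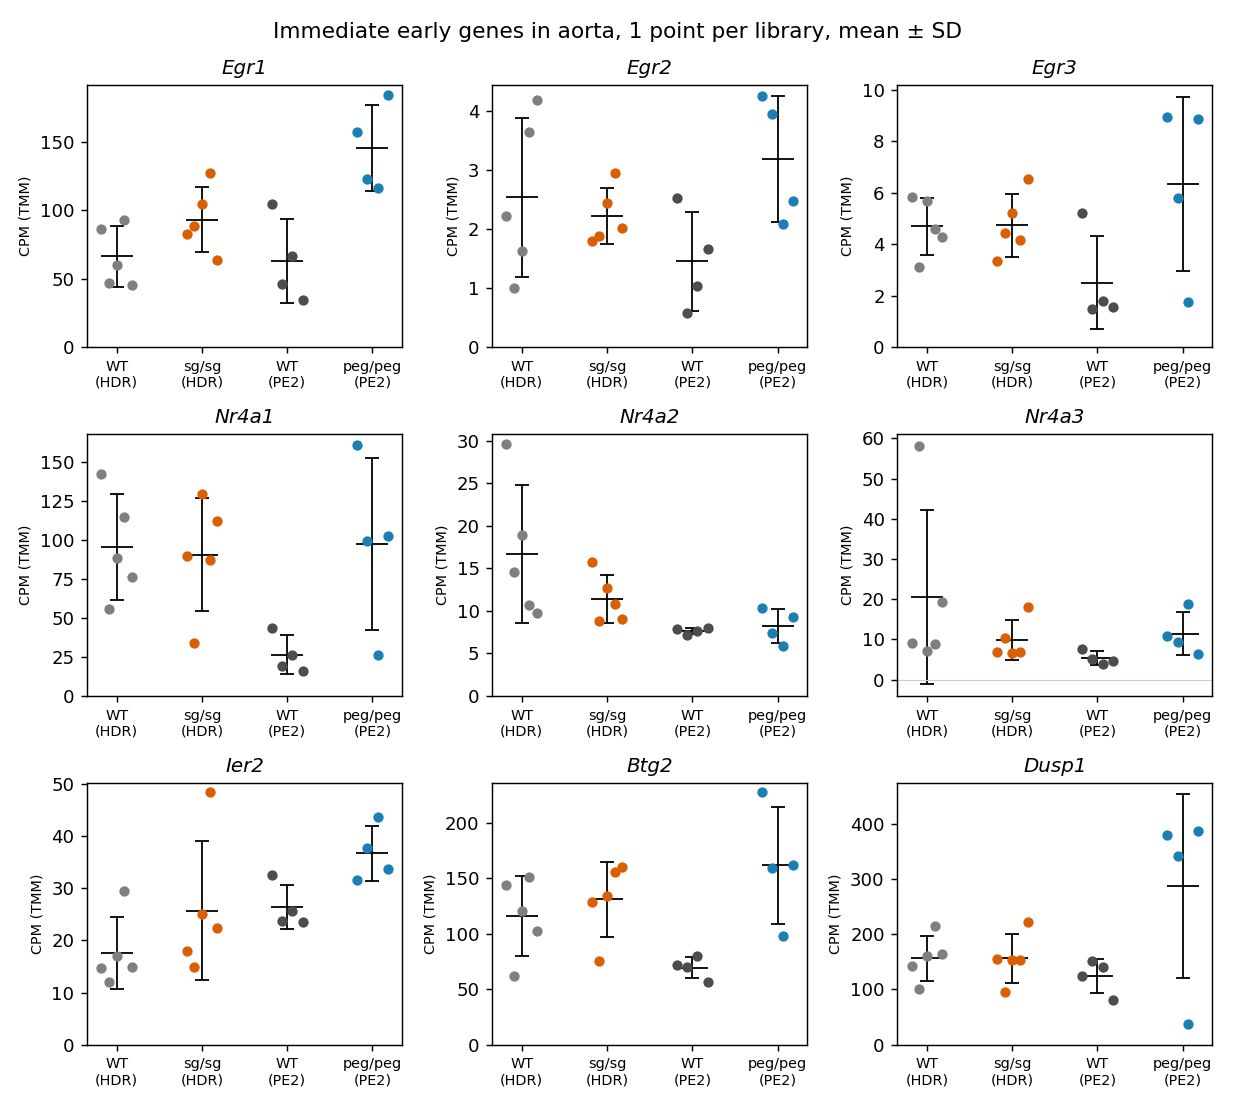
Levels of 9 immediate early genes in CPM, with 1 point for each library, in WT and sg/sg (HDR, n = 5 each) and in WT and peg/peg (PE2, n = 4 each); horizontal bars and whiskers are means ± SD. Peg/peg points lie above all WT points for Egr1 and Btg2, and 1 peg/peg library is low for Egr3, Nr4a1 and Dusp1.

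Ier2 gave 32.6, 23.7, 25.7 and 23.6 CPM in PE2 WT and 31.6, 37.8, 43.7 and 33.6 CPM in peg/peg, and the lowest peg/peg library lay just under the highest WT library. The log2 difference was 0.47 ± 0.15. With HDR editing Ier2 was 14.8, 12.1, 17.03, 29.6 and 14.9 CPM in WT and 17.9, 14.9, 25.1, 48.4 and 22.5 CPM in sg/sg. That difference was 0.54 ± 0.33, and 0.18 without sg/sg library 5.

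Btg2 gave 71.6, 70.0, 79.7 and 56.5 CPM in PE2 WT and 228, 159, 97.8 and 162 CPM in peg/peg. Every peg/peg library lay above every WT library, replicate 3 by the least, and the log2 difference was 1.22 ± 0.24. In the HDR experiment Btg2 was 116 ± 35.9 CPM in WT and 131 ± 33.7 in sg/sg (SD, n = 5 each), a difference of 0.18 ± 0.25 with overlapping groups.

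Dusp1 was the most abundant of these genes in each WT group. It gave 124, 151, 141 and 80.9 CPM in PE2 WT and 380, 341, 38.5 and 387 CPM in peg/peg. In 3 peg/peg libraries it was above every WT library and in replicate 3 it was below every WT library. The log2 difference was 1.21 ± 0.60, and 1.57 without replicate 3. Among HDR aortae Dusp1 was 156 ± 40.8 CPM in WT and 156 ± 44.9 in sg/sg (SD, n = 5 each), a difference of 0.00 ± 0.23.

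**Figure D3:**
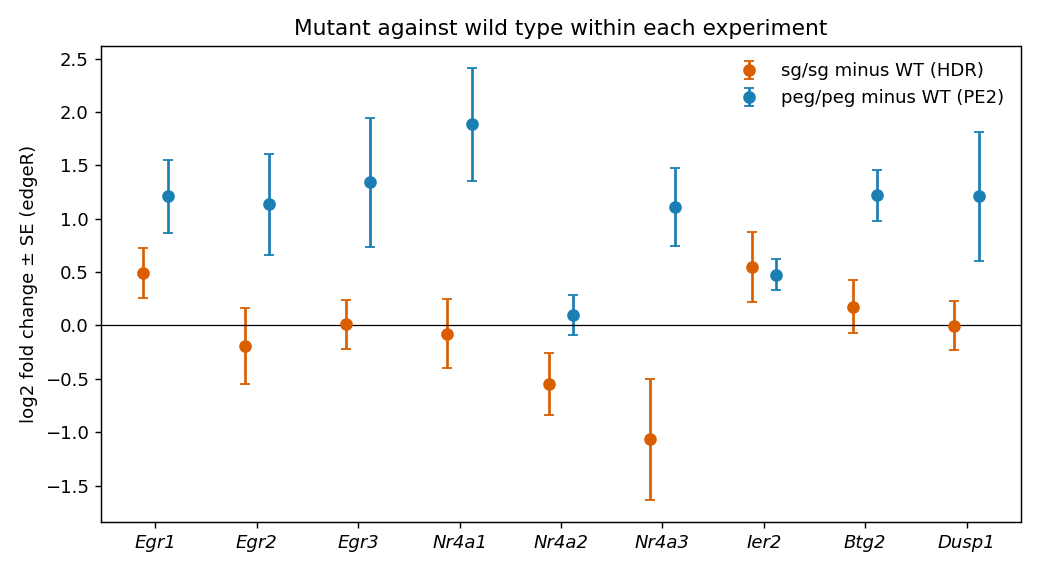
Log2 fold change of mutant against WT with its SE for 9 genes in the HDR and PE2 experiments (edgeR). PE2 values run from 0.10 for Nr4a2 to 1.88 for Nr4a1, and HDR values from -1.07 for Nr4a3 to 0.54 for Ier2.

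By the adjusted test across all genes (edgeR, Benjamini-Hochberg adjusted p under 0.05), none of the 9 genes was called in the HDR experiment, where 0.00609% of 16423 genes were called, nor in the PE2 experiment, where 0.0061% of 16401 were. The gene called in each was Tspan2. At an unadjusted p under 0.05, 6 of the 9 (Egr1, Egr2, Nr4a1, Nr4a3, Ier2 and Btg2) were higher in peg/peg, against 3.04% of all genes, and none was lower, against 1.27%. Without peg/peg replicate 3, 8 of the 9 were higher, all but Nr4a2, against 2.19% of genes, and none lower, against 1.91%. The count of 6 also depended on single libraries. It was 7 without WT replicate 1 and 5 when any library other than these 2 was left out. In sg/sg none was higher, against 0.353%, and none lower, against 1.63%. This count of 0 depended on single libraries and on the filter: without WT library 5 or with no filter, Egr1 and Ier2 were higher and Nr4a2 and Nr4a3 lower at an unadjusted p under 0.05, and 6 of the 10 libraries, each left out in turn, brought it above 0. Shares of all genes in those fits are not given here, so these counts show only that the 0 was not stable. DESeq2 called Btg2 in the PE2 experiment and no other of these genes. It called 30 genes in all, or 0.149%, with its default filtering, and 33, or 0.189%, with the filtering set for the threshold of 0.05, which was added after the first count had been seen. For HDR mice DESeq2 called none of the 10, against 0.00933% of genes under either setting. The genes were chosen on these contrasts, and nothing is read from these counts.

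Every peg/peg library lay above every WT library for 2 of the 9 genes, against 1.43% of all genes, and below for none, against 1.1%. Without peg/peg replicate 3 the groups separated for 5 of the 9, against 2.73%. Every sg/sg library lay above every WT library for none of them, against 0.122%, and below for none, against 0.195%. The median log2 difference over the 9 genes was 1.21 in the PE2 experiment, where the median of all genes was 0.01, and 0.00 in the HDR experiment, where it was 0.00. Without peg/peg replicate 3 the log2 differences were 1.29 ± 0.35 for Egr1, 1.28 ± 0.48 for Egr2, 1.65 ± 0.47 for Egr3, 2.19 ± 0.35 for Nr4a1, 0.22 ± 0.15 for Nr4a2, 0.75 ± 0.28 for Nr4a3, 0.37 ± 0.13 for Ier2, 1.39 ± 0.17 for Btg2 and 1.57 ± 0.20 for Dusp1. Their median was then 1.29, and Nr4a3 and Ier2 were smaller while the other 7 were larger. Other libraries moved the values too. With each PE2 library left out in turn, they ran from 1.00 to 1.56 for Egr1, 0.87 to 1.53 for Egr2 and 1.12 to 1.97 for Egr3. The ranges were 1.53 to 2.23 for Nr4a1, -0.04 to 0.22 for Nr4a2 and 0.75 to 1.35 for Nr4a3. For Ier2 they were 0.37 to 0.58, for Btg2 1.00 to 1.39 and for Dusp1 1.02 to 1.57.

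The PE2 difference exceeded the HDR difference by 2.16 ± 0.77 (SE, log2) for Nr4a3, 1.95 ± 0.63 for Nr4a1, 1.33 ± 0.61 for Egr3, 1.32 ± 0.59 for Egr2, 1.19 ± 0.62 for Dusp1, 1.02 ± 0.38 for Btg2, 0.70 ± 0.42 for Egr1 and 0.63 ± 0.40 for Nr4a2. For Ier2 it was -0.09 ± 0.41. By the edgeR interaction test no gene of 18094 was called (0%), with 929 at an unadjusted p under 0.05, among them 5 of the 9 genes. Without peg/peg replicate 3 the difference was 2.28 ± 0.52 for Nr4a1, 1.79 ± 0.76 for Nr4a3, 1.64 ± 0.50 for Egr3, 1.57 ± 0.34 for Dusp1, 1.47 ± 0.60 for Egr2, 1.22 ± 0.35 for Btg2, 0.80 ± 0.43 for Egr1, 0.78 ± 0.40 for Nr4a2 and -0.17 ± 0.43 for Ier2. No gene of 18333 was called in that fit.

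Levels between genes were compared per kilobase of exon (Gencode M21, GRCm38). In HDR WT the order was Dusp1 at 47.2 ± 12.3 CPM per kb, Btg2 at 42.3 ± 13.1, Nr4a1 at 27.2 ± 9.62, Egr1 at 14.8 ± 4.91, Ier2 at 11.6 ± 4.53, Nr4a2 at 4.12 ± 1.99, Nr4a3 at 3.42 ± 3.61, Egr3 at 1.07 ± 0.25 and Egr2 at 0.75 ± 0.40 (SD, n = 5). The ranges of neighbours in this order overlapped except for Ier2 and Nr4a2. In PE2 WT Dusp1 was again first at 37.5 ± 9.30 CPM per kb (n = 4), followed by Btg2 at 25.3 ± 3.52, Ier2 at 17.4 ± 2.79, Egr1 at 14.0 ± 6.86 and Nr4a1 at 7.51 ± 3.53. The ranges of these 5 neighbours overlapped in turn, and Nr4a1 stood above Egr1 in HDR WT and below it in PE2 WT. The tables were normalized separately, and levels across experiments were not tested.

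These genes lie apart in the genome (GRCm38). Btg2 is at chr1:134075170-134079120, Nr4a2 at chr2:57106830-57124003, Nr4a3 at chr4:48045153-48086447, Egr4 at chr6:85511121-85513589, Ier2 at chr8:84661331-84662852, Egr2 at chr10:67535475-67542188, Egr3 at chr14:70077203-70082614, Nr4a1 at chr15:101254269-101274795 and Dusp1 at chr17:26505590-26562128. Tspan2 itself is at chr3:102734529-102801513, on a chromosome that holds none of these 9.

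To ask whether the genes vary together among mice of one genotype, a measure that the choice of genes did not use, each gene's log2 CPM was centred on its group mean and correlated with that of Egr1, in 16 relations of 8 genes in 2 experiments. None passed an adjusted p of 0.05 (exact permutation of libraries within groups, two-sided, Benjamini-Hochberg over the 16), and 4 had an unadjusted p under 0.05. In the PE2 experiment (n = 8) Egr3 gave r = 0.75 (exact p = 0.00694, adjusted 0.111) and rho = 0.79 (exact p = 0.0174, adjusted 0.153). Nr4a1 gave r = 0.68 (exact p = 0.0174, adjusted 0.139) and rho = 0.74 (exact p = 0.0191, adjusted 0.153). Without the 2 libraries farthest from the median of Egr1 these r were 0.71 and 0.62. Without WT replicate 1 alone they were 0.56 (exact p = 0.0694) and 0.59 (exact p = 0.104), so that neither p stayed under 0.05.

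With HDR editing (n = 10) Ier2 gave r = 0.65 (exact p = 0.0447, adjusted 0.179) and rho = 0.49 (exact p = 0.178, adjusted 0.474), but r was 0.17 without those 2 libraries and rests on them. Nr4a3 moved against Egr1, with r = -0.71 (exact p = 0.0356, adjusted 0.179) and rho = -0.66 (exact p = 0.0610, adjusted 0.257), and r was -0.71 without the 2 libraries. Its p did not stay under 0.05 when some single libraries were left out. Without sg/sg library 6 r was -0.64 (exact p = 0.160), and without WT library 2 it was -0.68 (exact p = 0.0833). In the PE2 experiment the r of Nr4a3 was 0.04. The other relations had r from 0.13 to 0.51 in the HDR experiment and from 0.35 to 0.48 in the PE2 experiment.

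Peg/peg replicate 3 held the lowest peg/peg value of 7 of the 9 genes and the highest of the other 2, Nr4a3 and Ier2. PE2 WT replicate 1 held the highest WT value of 6, HDR WT library 3 the lowest of 6, and sg/sg library 3 the lowest of 5. WT replicate 4 of the PE2 experiment, the male, held the lowest value of 5.

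**Figure D4:**
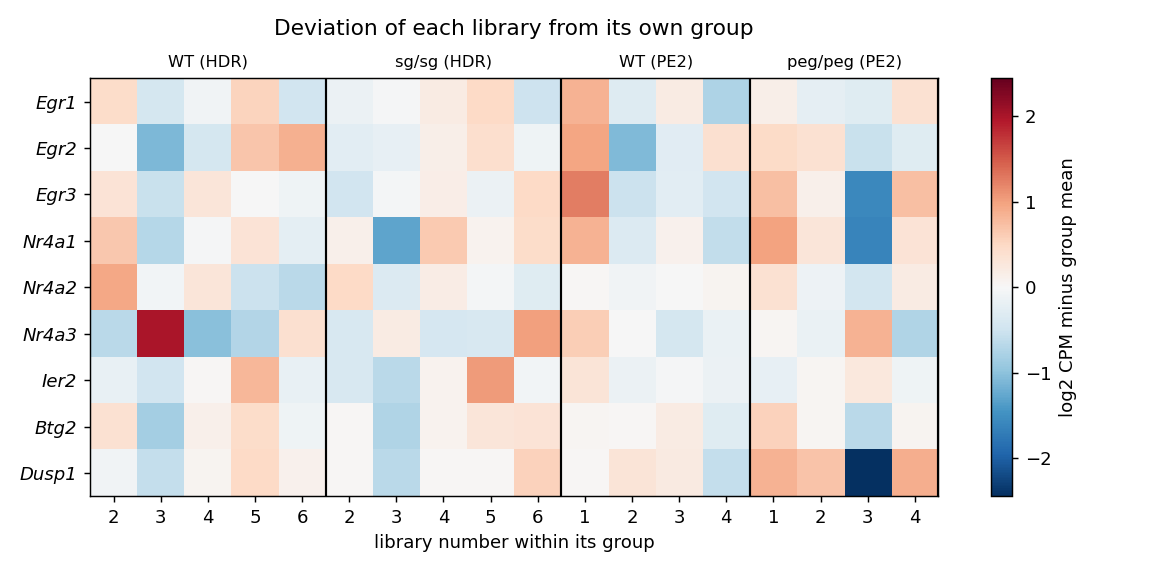
Deviation of each library from the mean of its group in log2 CPM, for 9 genes (rows) and 18 libraries (columns, grouped by genotype and experiment); red is above and blue below the group mean. Peg/peg library 3 is low for 7 of the 9 genes and HDR WT library 3 stands out for Nr4a3.

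Over all 18 libraries, the genes outside the 10 whose deviations were most like those of Egr1, among 14760 ranked, were Zfp939 (r = 0.78), Gm16023 (r = 0.74), Fos (r = 0.70), 1700012D14Rik (r = 0.68), Gm37447 (r = 0.68), Fosb (r = 0.67), Tmem181b-ps (r = 0.67) and Zfp36 (r = 0.66). Fos and Fosb are subunits of AP-1, and Zfp36 encodes tristetraprolin, an immediate early protein that destabilizes mRNA. Nr4a1 ranked 50 (r = 0.55), Egr3 54 (r = 0.55), Ier2 92 (r = 0.51) and Btg2 127 (r = 0.48), where 90% of all genes had r between -0.35 and 0.32. Egr2 (r = 0.38), Nr4a2 (r = 0.30) and Dusp1 (r = 0.29) ranked lower, and Nr4a3 was at -0.42. These correlations share libraries and are a description.

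The lists that follow were chosen with earlier results known, and their counts at an unadjusted p under 0.05 stand against 3.04% higher and 1.27% lower over all genes in the PE2 experiment, and 2.19% and 1.91% without peg/peg replicate 3. Among other immediate early genes, 4 of 8 tested AP-1 genes were higher in peg/peg at an unadjusted p under 0.05 and none lower, with a median log2 difference of 1.00. None was called by edgeR, and DESeq2 called none with its default filtering and Fosl2 with the filtering set for 0.05. Atf3 differed by 2.26 ± 0.76, Fos by 1.91 ± 0.70 and Fosb by 1.81 ± 0.48 (log2, SE), against -0.30 ± 0.54, 0.63 ± 0.55 and 0.79 ± 0.47 in sg/sg. The HDR median over 7 tested AP-1 genes was 0.14, with 5 of them above 0 and none at an unadjusted p under 0.05. Fosb was 2.65 to 10.3 CPM in PE2 WT and 11.9 to 31.5 CPM in peg/peg, with no overlap. With peg/peg replicate 3 left out, 5 of the 8 were higher, the median was 0.92, and Atf3 was at 2.62 ± 0.48, Fos at 2.21 ± 0.60 and Fosb at 2.01 ± 0.45.

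Of 38 other early response genes tested, 15 were higher and 1 was lower in peg/peg at an unadjusted p under 0.05, with a median of 0.68, and in sg/sg 1 was higher and 1 lower (0.353% and 1.63% of all genes), with a median of -0.05. EdgeR called none, and DESeq2 called Sik1, Ptgs2 and Cebpd under either filtering. Ptgs2, the inducible cyclooxygenase, was 1.85 ± 1.00 CPM in PE2 WT and 8.97 ± 3.82 in peg/peg (SD, n = 4 each), with a log2 difference of 2.28 ± 0.44 and -0.15 ± 0.34 in sg/sg. Ccn1, a matricellular SRF and YAP target, differed by 2.04 ± 0.91 and 0.15 ± 0.55. Rgs2, a regulator of G protein signalling, differed by 1.72 ± 0.81 and -0.49 ± 0.19, and in peg/peg it ran from 49.1 to 537 CPM. Leaving out peg/peg replicate 3, 20 of the 38 were higher and 1 lower, with a median of 0.69, and Rgs2 was at 0.08 ± 0.19, Ptgs2 at 1.93 ± 0.38 and Ccn1 at 2.42 ± 0.59, so that the difference of Rgs2 rested on that library.

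Of 13 MAP kinase phosphatases and other ERK feedback genes, relatives of Dusp1 in function, 3 were higher in peg/peg at an unadjusted p under 0.05, with a median of 0.35. Spry1 differed by 0.78 ± 0.27, Dusp8 by 0.73 ± 0.57 and Spry2 by 0.59 ± 0.23, against -0.08 ± 0.33, -0.02 ± 0.30 and -0.01 ± 0.15 in sg/sg. Of this list 12 genes were tested in the HDR experiment, where 1 was above 0 in log2 difference and the median was -0.09. None of the 12 had an unadjusted p under 0.05. In the 4 tested relatives of Btg2 none had an unadjusted p under 0.05, with Tob2 at 0.50 ± 0.44, Tob1 at -0.43 ± 0.29 and Btg3 at 0.43 ± 0.36. When peg/peg replicate 3 was left out, 6 of the 13 feedback genes and 1 of the 4 Btg2 relatives were higher, with Dusp8 at 1.08 ± 0.18, Spry1 at 0.63 ± 0.27, Spry2 at 0.62 ± 0.24 and Tob2 at 0.79 ± 0.24.

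Of 15 SRF, ETS and CREB pathway genes 1 was higher in peg/peg at an unadjusted p under 0.05, with a median of 0.00. Myocd, the smooth muscle coactivator of SRF, differed by 0.91 ± 0.31 in peg/peg and 0.31 ± 0.26 in sg/sg, Srf by 0.38 ± 0.18 and 0.05 ± 0.20, and Crtc2 by -0.24 ± 0.13 and 0.05 ± 0.18. None of 5 EGR and NR4A partners had an unadjusted p under 0.05. Rxrb, a partner of Nr4a1, differed by -0.20 ± 0.10, Nab1, a corepressor of EGR proteins, by 0.10 ± 0.07, and Rxra by -0.09 ± 0.09 in peg/peg. The counts of these lists were again 1 of 15 and 0 of 5 without peg/peg replicate 3, and Myocd was at 0.62 ± 0.26 and Srf at 0.19 ± 0.13. Neither edgeR nor DESeq2 called a gene of these 3 lists or of the ERK feedback list in either experiment.

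**Figure D5:**
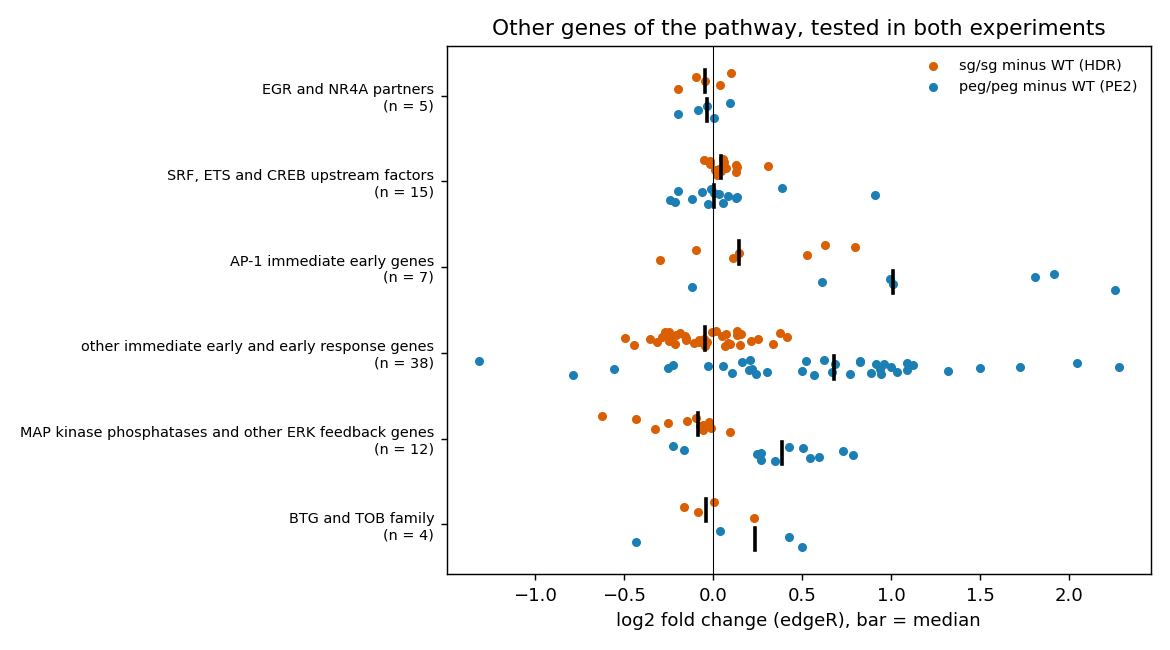
Log2 fold change of mutant against WT for the other genes of 6 lists tested in both experiments, with 1 point for each gene and a bar at the median of each list. In the PE2 experiment the medians of the AP-1 and early response lists lie above 0.5, and those of the partner and upstream lists are -0.04 and 0.00.

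Other signals moved beside these genes. Heat shock genes, 4 in all, were 118 to 221 CPM in PE2 WT and 154 to 578 CPM in peg/peg, with 2 of the 4 higher at an unadjusted p under 0.05. Glucocorticoid response genes, 4 in all, were 67.7 to 106 CPM in WT and 110 to 247 CPM in peg/peg, and these ranges did not overlap, with 1 of the 4 higher at an unadjusted p under 0.05. These counts were 3 of 4 and 2 of 4 without peg/peg replicate 3. The glucocorticoid sums of the HDR experiment overlapped, at 199 to 410 CPM in WT and 147 to 483 CPM in sg/sg. In the HDR experiment the heat shock sums were 75.5 to 702 CPM in WT and 86.8 to 764 CPM in sg/sg. The part of handling or of stress hormones in the immediate early genes was not tested.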

How the data were processed

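Poly(A) RNA of individual aortae was sequenced as single-end reads. Per the labels and the study's methods, the authors trimmed reads, aligned them to GRCm38 with STAR 2.7.0f and counted them per Gencode M22 gene with featureCounts of Subread 1.6.4. The deposited values used here are raw counts per gene symbol. The strand setting of the counting was not given in the sources used here. Normalized tables of the authors, made with DESeq2 1.22.1, were not used.

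Members and gene lists were chosen with earlier results of these data known. Counts were fitted within each experiment with edgeR 4.0.16 (filterByExpr, TMM, quasi-likelihood test, Benjamini-Hochberg adjustment over all genes tested) in R 4.3.3, and the experiments were compared by an interaction term over 18 libraries. SEs are the log2 fold change divided by the root of the F statistic. DESeq2 1.42.0 was the alternative, planned with its default filtering (level 0.1), which gave 30 calls in the PE2 experiment. A second fit with the level set to 0.05, the threshold used, was added after that count had been seen and with the published number of genes known; it gave 33. Both are reported, and the default is the one used for list counts and for leaving out libraries. Correlations used log2 CPM with a prior count of 2, centred on group means, and 576 (PE2) or 14400 (HDR) exact permutations (scipy 1.17.1). The plan had Egr4 in this family, but its counts were too few. The fits were tested on simulated data. Named genes were the members, Tspan2, up to 3 genes of each list with the largest PE2 fold change among those tested in both experiments, and the 8 genes most like Egr1; Fosl2, Sik1 and Cebpd were named after their values were seen. Each library came from an individual aorta, so that p-values measure the spread between mice.

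Same-numbered PE2 libraries deviated together with r of 0.02, -0.23, -0.06 and -0.29. Pairs with different numbers were not compared, so that this check cannot decide whether the numbers pair them. The main fits left the libraries unpaired, and a replicate block was fitted as an alternative. All pairs of libraries within a group differed by more than sampling noise (chi-square per degree of freedom at least 15.6).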

Additional observations from a re-analysis of the deposited data

Results flagged for a closer look

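Of 36 groups of 4 or 5 libraries, 4 held a library far from the rest by Dixon's ratio of the gap to the range, and chance flags about 1 group in 20. Dusp1 in peg/peg had replicate 3 low, at 38.5 CPM against 341 to 387, with a ratio of 0.868. Egr3 in PE2 WT had replicate 1 high, at 5.20 CPM against 1.48 to 1.79, with a ratio of 0.917. Nr4a3 in HDR WT had library 3 high, at 58.2 CPM against 7.10 to 19.2, with a ratio of 0.763. Ier2 in HDR WT had library 5 high, at 29.6 CPM against 12.1 to 17.03, with a ratio of 0.716.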

How the results depend on the processing

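The number of these genes called in the PE2 experiment, 0 with edgeR, was 1 (Btg2) with DESeq2 under its default filtering and 1 under the filtering set for 0.05, a level chosen after the first result was known. With DESeq2 it ranged from 0 to 4 as single libraries were left out. It was 3 (Egr1, Nr4a1 and Btg2) without WT replicate 1, where DESeq2 called 39 genes in all. Without peg/peg replicate 3 it was 4 (with Dusp1 added), with 99 genes called in all, against 30 with every library kept. Without peg/peg replicate 4 it was 1 (Btg2), with 90 genes called in all. Shares of the genes tested in these fits are not given here. It was 0 without WT replicate 2, WT replicate 4 (the male) or peg/peg replicate 2, with 15, 36 and 38 genes called respectively. The cause was not tested. The edgeR count was 0 with DESeq2 size factors, with no filter and with any library left out. With the replicate block it was also 0, and no gene at all was called. In the HDR experiment it was 0 under every alternative, and in every fit run the interaction and the correlation with Egr1 gave 0 calls among these genes. The log2 differences of Egr1, Egr2, Egr3, Nr4a1, Nr4a3, Ier2, Btg2 and Dusp1 in the PE2 experiment kept their sign under all alternatives, and that of Nr4a2 did not. In the HDR experiment Egr2, Egr3, Nr4a1 and Dusp1 changed sign under some. Without the 2 libraries farthest from the median of Egr1, the r of Nr4a3 and Ier2 in the PE2 experiment became -0.77 and -0.55, that of Dusp1 in the HDR experiment went from 0.13 to -0.19, that of Egr2 there from 0.38 to 0.05, and that of Nr4a2 from 0.31 to 0.78 (HDR) and from 0.35 to 0.75 (PE2). With 4 or 5 mice a group, differences of low genes such as Egr2 are imprecise.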
